A study of Mus musculus with 7 samples.

Results

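Transforming growth factor beta (TGF-beta) genes were followed in injured mouse retina with and without overexpression of Tppp3, which encodes a tubulin polymerization-promoting protein. The group was chosen by gene name from the deposited count table and holds 10 of its 25655 genes. These are the ligands Tgfb1, Tgfb2 and Tgfb3, the receptors Tgfbr1, Tgfbr2 and Tgfbr3, and the latent binders Ltbp1, Ltbp2, Ltbp3 and Ltbp4. All 10 had enough counts in the libraries to be among the 14750 genes tested. The 3 Tppp3 AAV2 retinas had received a Tppp3 overexpression vector and the 3 control AAV2 retinas a control vector whose name holds CMV, AAV2 being an adeno-associated virus commonly used to reach retinal ganglion cells. Neither the promoter that drives Tppp3 nor the age of the animals is stated in the labels. All retinas came from wildtype C57BL/6 mice, and both groups had their optic nerve crushed, an injury to the axons of ganglion cells, and were collected 2 days later. There was no uninjured group, so the levels given here describe injured retina. The stated aim was to find the regulation behind axon regrowth and ganglion cell survival after Tppp3 overexpression.

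TGF-beta ligands are secreted as dimers that stay wrapped in their own propeptide, and most of this latent complex is bound to a latent TGF-beta binding protein (LTBP) that tethers it to the extracellular matrix. Integrins, thrombospondin or proteases release the ligand, which binds the type II receptor encoded by Tgfbr2. That receptor recruits and activates the type I receptor encoded by Tgfbr1, which phosphorylates SMAD transcription factors. In the eye the pathway is known for its part in matrix deposition, in blood vessels and in keeping microglia in their resting state.

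The 6 libraries held between 10961443 and 21843892 gene counts, and each Tppp3 AAV2 library was deeper than each control library. Levels are given as CPM, counts relative to the library total, scaled by the TMM method so that libraries of unlike composition can be compared. Tppp3 itself had 53.7, 36.5 and 41.8 CPM in Tppp3 AAV2 replicates 1, 2 and 3, against 18.7, 22.2 and 28.02 CPM in control replicates 1, 2 and 3, and reads of the vector and of the native gene were not separated. As a check of the tissue, 10 markers of Müller glia summed to 4428 to 5138 CPM in the Tppp3 AAV2 libraries, against 4020 to 4746 CPM in the control libraries. A list of 10 markers of retinal ganglion cells summed to 672 to 797 CPM in the Tppp3 AAV2 libraries, against 731 to 742 CPM in the control libraries. Each of 116 marker genes looked up for 14 cell types of the eye and blood had counts in some library. These are bulk measurements, so fewer cells of a type and less RNA per cell cannot be told apart.

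Among the 10 genes, Tgfb2 was by far the most abundant per length of transcript and Tgfb1 the least. Divided by the length of the annotated exons, Tgfb2 stood at 15.9 CPM per kilobase on average over the 6 libraries (range 14.6 to 17.4). Ltbp3 followed at 7.79 (7.39 to 8.05), then Tgfbr1 at 6.86 (6.22 to 7.25) and Tgfb3 at 6.85 (6.47 to 7.50). The next 5 lay close together, with Ltbp4 at 1.78, Tgfbr2 at 1.75, Ltbp2 at 1.42, Ltbp1 at 1.35 and Tgfbr3 at 1.24 CPM per kilobase. Tgfb1 averaged 0.465 (0.235 to 0.716). The range of Tgfb2 lay above that of each other member, those of Ltbp3 and Tgfb3 and those of Tgfbr1 and Tgfb3 overlapped, and the 5 genes from Ltbp4 to Tgfbr3 overlapped each other, apart from Ltbp4 and Tgfbr3. The range of Tgfb1 overlapped that of Ltbp2 and of no other member.

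The proximal promoters of Tgfb2, the most abundant member, and of Ltbp1 and Ltbp2, whose levels varied together over the libraries, are shown to compare their sequence. RefSeq windows on GRCm38.p6, of 250 bases before to 50 after an annotated start, were found for 8 of the 10 members. Ltbp1 has 2 annotated starts, and counts per gene do not tell them apart. Capitals mark the letters CAGAC, the core of a SMAD-binding element, on either strand. They also mark TATAAA, a box often found just before a start, on either strand. The third set of letters marked is GGGCGG, which the factor Sp1 binds, again on either strand.
Tgfb2 chr1:186705940-186706239 (minus strand): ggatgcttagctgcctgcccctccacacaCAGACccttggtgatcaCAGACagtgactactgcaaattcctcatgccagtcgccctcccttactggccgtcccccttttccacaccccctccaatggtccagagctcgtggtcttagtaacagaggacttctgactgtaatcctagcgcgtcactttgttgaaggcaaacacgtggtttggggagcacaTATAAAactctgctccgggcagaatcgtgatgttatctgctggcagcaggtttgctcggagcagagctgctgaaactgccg
Ltbp1 first start chr17:75005279-75005578 (plus strand): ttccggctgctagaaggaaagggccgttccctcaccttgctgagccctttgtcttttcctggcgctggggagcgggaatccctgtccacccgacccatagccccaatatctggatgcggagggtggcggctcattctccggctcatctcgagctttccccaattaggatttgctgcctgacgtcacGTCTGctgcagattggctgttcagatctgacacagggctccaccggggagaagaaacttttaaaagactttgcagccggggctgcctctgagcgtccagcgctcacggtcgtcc
Ltbp1 second start chr17:75178531-75178830 (plus strand): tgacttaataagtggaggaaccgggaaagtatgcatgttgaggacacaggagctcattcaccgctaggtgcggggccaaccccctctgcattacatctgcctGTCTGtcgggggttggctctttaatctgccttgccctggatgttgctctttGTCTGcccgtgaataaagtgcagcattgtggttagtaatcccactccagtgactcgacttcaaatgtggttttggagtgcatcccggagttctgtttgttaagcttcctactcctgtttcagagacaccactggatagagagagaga
Ltbp2 chr12:84876442-84876741 (minus strand): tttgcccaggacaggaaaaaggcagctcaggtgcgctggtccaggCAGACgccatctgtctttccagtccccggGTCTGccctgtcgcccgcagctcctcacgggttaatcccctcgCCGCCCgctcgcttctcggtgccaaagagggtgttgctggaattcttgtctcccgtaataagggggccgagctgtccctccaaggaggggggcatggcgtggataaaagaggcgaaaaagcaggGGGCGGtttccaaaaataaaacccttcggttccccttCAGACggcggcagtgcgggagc

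The Tgfb2 window held CAGAC at 2 places and TATAAA at 1, which began 31 bases before the start (position -31). CAGAC stood at 1 place in the first Ltbp1 window, at 2 in the second and at 3 in the Ltbp2 window, which also held GGGCGG at 2 places. Over all 32851 promoter windows of that length, 49.6% held CAGAC, 13.6% TATAAA and 35.7% GGGCGG. The AP-1 site TGACTCA, in 5.2% of all windows, and the letters CATGTG, in 14.2%, were in none of the 4 windows printed. These are matches of letters and no measurement of binding.

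With Tppp3 overexpression none of the 10 genes passed the test over all genes. The counts were compared with edgeR's two-sided quasi-likelihood test, and p-values were adjusted over all tested genes by the Benjamini-Hochberg method and read against 0.05. Of all tested genes 0.0136% passed, 0 higher and 2 lower, and 0 of the 10 members did. DESeq2's Wald test and limma's voom with quality weights also placed 0 members past the threshold. Tppp3 itself did not pass in edgeR, with a log2 fold change of 0.94 ± 0.20 (SE, n = 3 per group, edgeR adjusted p = 0.639). DESeq2's Wald test called Tppp3 higher (adjusted p = 2.1e-05), and voom did not (adjusted p = 0.526). The gene that the vector was meant to raise was thus not called in edgeR, so a member that did not pass may still differ. At an unadjusted p under 0.05, edgeR had 1 of the 10 members, Ltbp1, where 7.23% of all tested genes reached that level. The groups did not overlap for 3 members, Tgfb2, Tgfbr3 and Ltbp1, each higher with Tppp3 AAV2, where 13.9% of all tested genes did not overlap and 6.92% did so with Tppp3 AAV2 higher. The median log2 fold change was 0.062 over the 10 members, against 0.0030 over all tested genes, and 6 of the 10 were positive, where 50.9% of all tested genes were. The labels do not say whether each library came from another animal, and the p-values measure the spread between these samples. Y-linked counts were high in 1 library of each group and low in the other two, so each group held more than 1 animal.

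**Figure D1:**
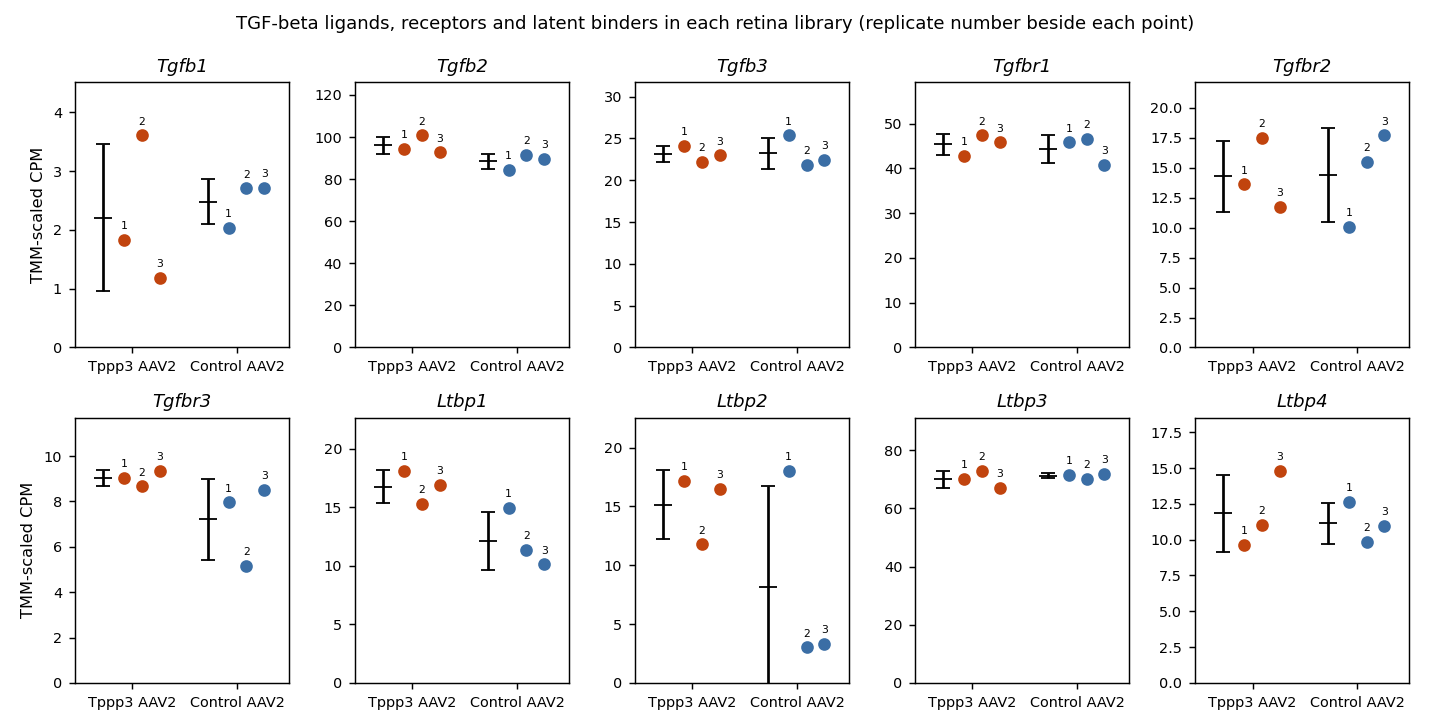
Level of each of the 10 genes in TMM-scaled CPM (vertical axes, each from 0) in the 3 Tppp3 AAV2 and the 3 control AAV2 libraries, with the replicate number above each point and the mean and SD of the group beside the points. Tgfb2, Tgfbr3 and Ltbp1 do not overlap between groups, and Ltbp2 in control replicate 1 stands with the Tppp3 AAV2 libraries at 18.0 CPM, which makes the SD bar of the controls reach below the axis, where it is cut off.

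Of the ligands, Tgfb2 encodes the isoform best known from the vitreous and the optic nerve head. It had 94.5, 100.8 and 92.7 CPM in Tppp3 AAV2 replicates 1, 2 and 3, against 84.5, 91.5 and 89.6 CPM in control replicates 1, 2 and 3. Each Tppp3 AAV2 library thus lay above each control library, the nearest being 92.7 and 91.5 CPM. The log2 fold change was 0.12 ± 0.056 (SE, n = 3 per group; edgeR adjusted p = 0.717), with a 95% interval of -0.0070 to 0.24. Tgfb3 encodes the third isoform, which like the first carries an integrin-binding motif in its propeptide. It had 24.1, 22.2 and 23.0 CPM with Tppp3 AAV2 and 25.4, 21.9 and 22.4 CPM in the controls. Its groups overlapped almost wholly, and the 95% interval of its log2 fold change, -0.20 to 0.19, holds no difference beyond these sizes.

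Tgfb1, the isoform made largely by microglia and other myeloid cells, rested on few reads, with raw counts of 36, 80 and 25 in Tppp3 AAV2 replicates 1, 2 and 3 and of 23, 44 and 30 in control replicates 1, 2 and 3. In CPM these were 1.83, 3.61 and 1.19 with Tppp3 AAV2, against 2.03, 2.70 and 2.71 in the controls. The highest and the lowest of the 6 libraries both belonged to the Tppp3 AAV2 group. The log2 fold change of -0.17 ± 0.39 (SE, n = 3 per group, edgeR adjusted p = 0.954) has a 95% interval of -1.02 to 0.69. Differences within those bounds are compatible with these libraries.

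Within each library the mixture of ligands was alike. Per length of transcript, Tgfb2 made up 68.5%, 70.5% and 69.5% of the reads of the ligand genes in Tppp3 AAV2 replicates 1, 2 and 3, against 64.9%, 69.3% and 68.3% in control replicates 1, 2 and 3. Tgfb3 made up 26.6% to 30.0% with Tppp3 AAV2 and 28.4% to 33.3% in the controls, and Tgfb1 1.02% to 2.90% with Tppp3 AAV2 and 1.79% to 2.38% in the controls. The groups overlapped in the share of each ligand.

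Among the receptors, Tgfbr1 encodes the type I receptor kinase and was steady over the libraries. It had 42.8, 47.4 and 45.8 CPM with Tppp3 AAV2 and 45.8, 46.5 and 40.7 CPM in the controls, with overlapping groups. The 95% interval of its log2 fold change of 0.031 ran from -0.13 to 0.19 (edgeR adjusted p = 0.955). Tgfbr2, the ligand-binding type II receptor, varied more, with 13.6, 17.5 and 11.7 CPM in Tppp3 AAV2 replicates 1, 2 and 3 and 10.1, 15.5 and 17.7 CPM in control replicates 1, 2 and 3. Its lowest and its highest library were both controls, and the log2 fold change of -0.016 had a 95% interval of -0.55 to 0.52.

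Tgfbr3 encodes betaglycan, a co-receptor with a large share in presenting the Tgfb2 product, which binds the type II receptor weakly by itself. It had 9.04, 8.66 and 9.35 CPM with Tppp3 AAV2, against 7.96, 5.16 and 8.50 CPM in the controls. Each Tppp3 AAV2 library lay above each control library, by a narrow margin over control replicate 3. The means were 9.02 ± 0.347 CPM with Tppp3 AAV2 and 7.20 ± 1.79 CPM in the controls (SD, n = 3 each), and the log2 fold change was 0.34 ± 0.18 (SE; edgeR adjusted p = 0.750). Without control replicate 2, the lowest of the 6, the log2 fold change was 0.13.

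**Figure D2:**
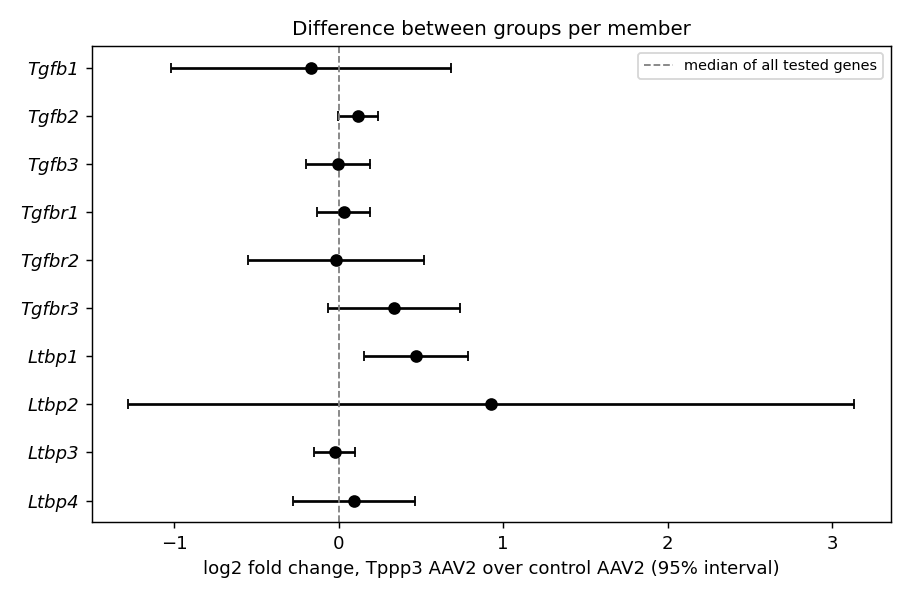
Log2 fold change of each of the 10 genes, Tppp3 AAV2 over control AAV2, with its 95% interval from edgeR's quasi-likelihood fit (horizontal axis) and the median of all tested genes as a dashed line. The interval of Ltbp1, 0.15 to 0.78, lies above 0 before adjustment for the 14750 genes tested, and that of Ltbp2 is the widest, -1.28 to 3.13.

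The latent binders differed in how much they varied between libraries. Ltbp3, whose product helps to secrete the latent complex, varied little, with 70.2, 73.0 and 67.0 CPM in Tppp3 AAV2 replicates 1, 2 and 3, against 71.6, 70.3 and 71.8 CPM in control replicates 1, 2 and 3. The 95% interval of its log2 fold change of -0.024 was -0.15 to 0.100. Ltbp4, a binder also known from elastic fibre assembly, had 9.65, 11.05 and 14.8 CPM with Tppp3 AAV2 and 12.6, 9.83 and 10.9 CPM in the controls, with overlapping groups and a log2 fold change of 0.093 (95% interval -0.28 to 0.46).

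Ltbp1, the binder that anchors latent TGF-beta to fibrillin and fibronectin in the matrix, had the smallest p of the 10. It had 18.1, 15.3 and 16.9 CPM in Tppp3 AAV2 replicates 1, 2 and 3, against 14.9, 11.4 and 10.1 CPM in control replicates 1, 2 and 3. All 3 Tppp3 AAV2 libraries lay above all 3 controls, though Tppp3 AAV2 replicate 2 and control replicate 1 were close. The means were 16.8 ± 1.43 CPM with Tppp3 AAV2 and 12.1 ± 2.50 CPM in the controls (SD, n = 3 each). The log2 fold change was 0.47 ± 0.14 (SE), with an unadjusted p of 0.00733 and an adjusted p of 0.639 in edgeR's test, so it did not pass. The adjusted p lay between 0.266 and 0.907 over the 16 other settings tried, a fit added after the data were seen included. Over the same settings the log2 fold change of Ltbp1 lay between 0.17 and 0.64.

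Ltbp2 encodes a fibrillin-associated matrix protein that, unlike the other LTBPs, is not known to carry latent TGF-beta. It had 17.2, 11.8 and 16.5 CPM in Tppp3 AAV2 replicates 1, 2 and 3, against 18.0, 3.01 and 3.34 CPM in control replicates 1, 2 and 3. The controls thus held the highest and the 2 lowest of the 6 libraries. The log2 fold change was 0.93 ± 0.81 (SE, n = 3 per group; edgeR adjusted p = 0.858). A single library decided this outcome. Without control replicate 1 the log2 fold change of Ltbp2 was 2.25 and its edgeR adjusted p 0.0125, the single case in which a member passed the threshold, while over 15 other settings its log2 fold change ran from 0.44 to 2.25 and its adjusted p from 0.0125 to 0.999. It was -0.25 in 1 further fit, with sex as a covariate at a cutoff of 1 CPM of Y-linked counts, added after the data were seen.

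Per length of transcript, Ltbp2 took 16.1%, 11.4% and 15.2% of the reads of the latent binder genes in Tppp3 AAV2 replicates 1, 2 and 3, against 16.4%, 3.44% and 3.72% in control replicates 1, 2 and 3. Ltbp3 took most of the rest, 55.6% to 63.7% with Tppp3 AAV2 and 58.7% to 72.4% in the controls.

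Ltbp1 and Ltbp2 moved together over the libraries, with the highest correlation of the 45 pairs of members (Pearson r = 0.93 on log2 CPM over 6 libraries, a description that holds both groups). Of all pairs among the 13707 named genes with a mean of at least 1 CPM, 0.371% had an r as high. Next came Tgfb1 and Ltbp3 (r = 0.89, reached by 1.02% of all pairs). At the other end, Tgfb3 and Tgfbr2 ran against each other (r = -0.82).

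Genes of the pigment epithelium, the layer behind the retina, ran alongside Ltbp2. The summed level of 12 pigment epithelium markers was 173, 63.9 and 166 CPM in Tppp3 AAV2 replicates 1, 2 and 3, against 170.1, 48.4 and 49.4 CPM in control replicates 1, 2 and 3. Tppp3 AAV2 replicates 1 and 3 and control replicate 1 were thus high in both. Tppp3 AAV2 replicate 2 lay between these 3 libraries and control replicates 2 and 3 in both. The mean log2 CPM of the 10 tested markers was 1.53 in Tppp3 AAV2 replicate 2, against 0.74 and 0.34 in control replicates 2 and 3. Ltbp2 stood at 11.8 CPM in Tppp3 AAV2 replicate 2, against 3.01 and 3.34 CPM in control replicates 2 and 3. The single markers were not alike in this. Rdh5, Lrat, Best1 and Mlana stood in Tppp3 AAV2 replicate 2 between control replicates 2 and 3. Rdh5, for example, had 2.57 CPM there, against 3.20 and 1.45 CPM in control replicates 2 and 3. The other markers of the list lay above both controls. The pigment gene Dct, 1 of these, had 4.15 CPM in Tppp3 AAV2 replicate 2, against 1.60 and 1.27 CPM in control replicates 2 and 3. None of the 12 markers was at 0 in every library, all 10 that could be tested had a positive log2 fold change, and 0 passed in edgeR, with 0 at an unadjusted p under 0.05. With the mean level of the 10 tested markers as a covariate the log2 fold change fell to 0.44 for Ltbp2 and to 0.28 for Ltbp1 (edgeR adjusted p = 0.776 and 0.633). The part of pigment epithelium RNA in the levels of both genes was otherwise not tested.

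Microglia markers ran alongside Tgfb1 and Tgfbr2 in the same descriptive way. The summed level of 14 microglia markers was 185, 287 and 153 CPM in Tppp3 AAV2 replicates 1, 2 and 3, against 169, 267 and 253 CPM in control replicates 1, 2 and 3. Tppp3 AAV2 replicate 2 and control replicates 2 and 3 were the 3 highest libraries for these markers, for Tgfb1 and for Tgfbr2. They were also highest for the sum of 5 astrocyte markers (160, 140 and 145 CPM, against 78.5 to 118 CPM in the others). Gfap made up most of that sum, with 109, 98.4 and 97.2 CPM in these 3 libraries, against 32.9 to 74.4 CPM in the others. Each of the other astrocyte markers, S100b, Aldh1l1, Pdgfra and Pax2, had a further library among its 3 highest. The sum of 8 blood myeloid markers, a list that includes Fn1, was highest in the same libraries (213, 187 and 259 CPM, against 116 to 175 CPM). The mean log2 CPM of its tested markers was not. It stood at 3.30 in Tppp3 AAV2 replicate 1, against 3.14 in Tppp3 AAV2 replicate 2 and 2.66 in control replicate 2. The match of the sums was thus not particular to the microglia markers. The resting-state microglia gene P2ry12 was present in each library, at 2.49 to 8.25 CPM with Tppp3 AAV2 and 4.24 to 6.15 CPM in the controls. Of the 14 markers 0 passed in edgeR, with 0 at an unadjusted p under 0.05, and their part in the levels of Tgfb1 and Tgfbr2 was not tested.

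**Figure D3:**
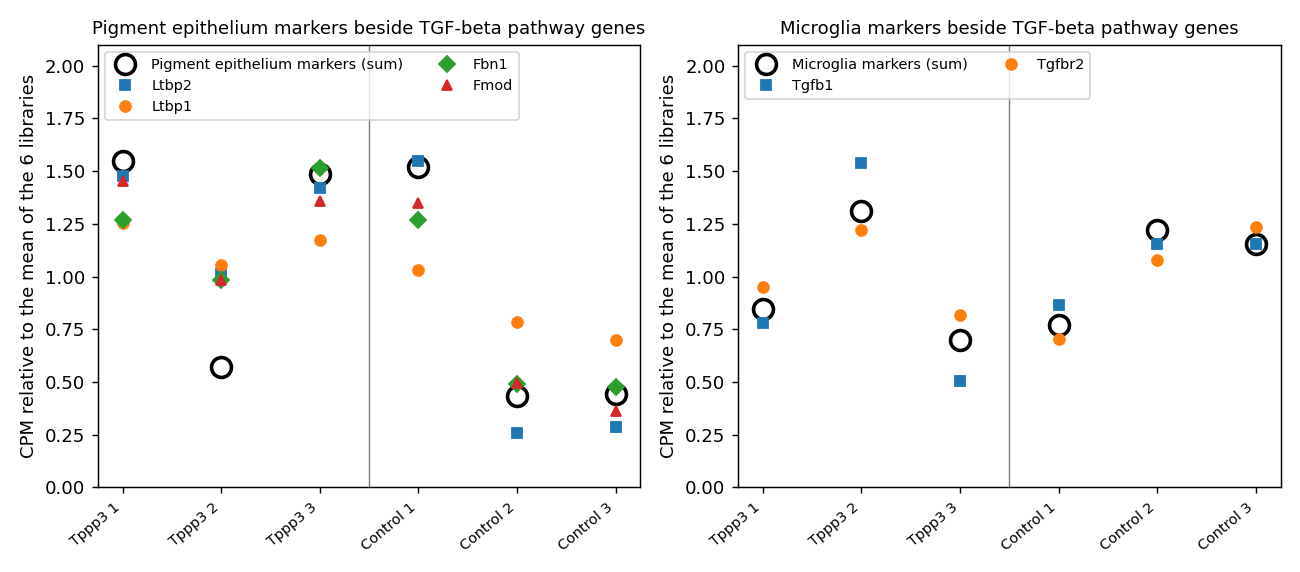
Level in each library divided by the mean of the 6 libraries (vertical axis, from 0) for the summed pigment epithelium markers with Ltbp2, Ltbp1, Fbn1 and Fmod (left) and for the summed microglia markers with Tgfb1 and Tgfbr2 (right), with the Tppp3 AAV2 libraries left of the controls. Ltbp2, Fbn1 and Fmod are low in control replicates 2 and 3, and the pigment epithelium markers are low in those and in Tppp3 AAV2 replicate 2.

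The genes whose levels over the 6 libraries were most like each member were picked by Pearson r among 13706 other genes. For Ltbp2 they were Fbln1, which encodes the matrix protein fibulin (r = 0.998), and Pmel, a pigment cell gene (r = 0.996). Fbln1 had 60.05, 27.2 and 58.2 CPM in Tppp3 AAV2 replicates 1, 2 and 3, against 52.2, 1.72 and 1.99 CPM in control replicates 1, 2 and 3. For Ltbp1 they were Tub and Adcy5, for Ltbp3 Mafk and Mfsd4a, and for Ltbp4 mt-Nd2 and Ap5m1. For the ligands they were Nfkbie and Bcl2a1b (Tgfb1), Sfmbt1 and Nras (Tgfb2), and Ism1 and Diablo (Tgfb3). The receptors were closest to Ccn2 and Adam11 (Tgfbr1), Tmem71 and Gng10 (Tgfbr2), and Mup22 and Cyp2c69 (Tgfbr3). Bcl2a1b, Mup22 and Cyp2c69 belong to families of near-identical copies, so their levels are uncertain. Each r lay between 0.975 and 0.998, and the median r of the closest match over all these genes was 0.992, so that values of this size are common with 6 libraries.

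Outside the 10 genes, Fn1 alone passed in edgeR among the pathway lists. Of 15 tested genes of processing, anchoring and release, 0 passed in edgeR, 5 had a positive and 10 a negative log2 fold change, and the median was -0.063. Among these 15, where 7.23% of all tested genes reached an unadjusted p under 0.05, Thbs1 alone did. This gene, which encodes the TGF-beta activator thrombospondin-1, had 20.7, 22.4 and 26.9 CPM in Tppp3 AAV2 replicates 1, 2 and 3, against 51.8, 31.6 and 41.03 CPM in control replicates 1, 2 and 3. Its groups did not overlap, as was so for 13.9% of all tested genes. The log2 fold change of Thbs1 was -0.82 ± 0.20 (SE, n = 3 per group, edgeR adjusted p = 0.639). DESeq2's Wald test called Thbs1 lower, with an adjusted p of 7.5e-04, and over all settings the adjusted p ran up to 0.907. The integrin subunit genes Itgav and Itgb5, which take part in release, stood at 0.13 and -0.12 on the log2 scale, and their groups overlapped.

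Among 8 matrix proteins that hold LTBPs or bind TGF-beta, Fn1 alone passed. Fn1 encodes fibronectin, on which LTBP1 is deposited, and had 109.6, 103 and 102 CPM in Tppp3 AAV2 replicates 1, 2 and 3, against 160, 148 and 173 CPM in control replicates 1, 2 and 3. It fell by 0.61 on the log2 scale (SE 0.063, edgeR adjusted p = 0.0138), a call that did not survive the removal of Tppp3 AAV2 replicate 2 (edgeR adjusted p = 0.0642), of Tppp3 AAV2 replicate 3 (0.148) or of control replicate 3 (0.112), nor a term for sex (0.0885). The log2 fold change of Fn1 itself ran from -0.66 to -0.55 over all settings. Summed, 9 markers of ocular surface epithelium were lower in the same libraries, at 87.03 to 110.3 CPM with Tppp3 AAV2 and 127 to 155 CPM in the controls. Of 7 tested markers 6 did not overlap between groups, each lower with Tppp3 AAV2. The other, Krt18, held the largest part of the sum. It had 44.9, 69.0 and 53.8 CPM with Tppp3 AAV2, against 57.1, 56.5 and 64.2 CPM in the controls. Among all 14750 tested genes 13.9% did not overlap, 1036 of them as lower. The keratin gene Krt7 was past the threshold in edgeR. The list was chosen with results of these data known, so these counts describe its genes and are no independent test. The 2 markers too low to test, Krt5 and Krt19, went the other way in Tppp3 AAV2 replicate 3, with 1.80 and 0.997 CPM against at most 0.123 and 0 CPM in the controls. The part of these markers in the levels of Fn1 and Thbs1 was not tested. Fbn1, the fibrillin to which LTBPs bind, had 53.3, 41.5 and 63.7 CPM in Tppp3 AAV2 replicates 1, 2 and 3, against 53.3, 20.6 and 19.97 CPM in control replicates 1, 2 and 3. Fmod, the small proteoglycan fibromodulin, had 17.1, 11.6 and 16.0 CPM with Tppp3 AAV2, against 15.9, 5.84 and 4.25 CPM in the controls. Both genes were low in control replicates 2 and 3 and high in control replicate 1, as Ltbp2 was, and neither passed (log2 fold change 0.76 and 0.79, edgeR adjusted p = 0.802 and 0.812). Without control replicate 1 Fbn1 stood at 1.38 and Fmod at 1.54 (edgeR adjusted p = 0.214 and 0.0799). The median over the 8 matrix genes was -0.085.

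No tested gene of the machinery at and below the receptor passed in edgeR. Of 10 tested receptor partners 0 passed in edgeR and 0 reached an unadjusted p under 0.05, with log2 fold changes between -0.23 and 0.10. Eng, the endothelial co-receptor endoglin, stood at -0.23, Zfyve9, an adaptor that brings SMADs to the receptor, at 0.063, and Vasn, a TGF-beta trap, at 0.10. Of the 5 SMAD genes 0 passed and 0 reached an unadjusted p under 0.05, with values between -0.063 and 0.16. The receptor-activated Smad2 stood at 0.090, the common partner Smad4 at -0.038 and the inhibitory Smad7 at -0.063. Of 10 tested SMAD regulators 0 passed and 2 reached an unadjusted p under 0.05, where 7.23% of all tested genes did. Both are ubiquitin ligase genes. Rnf111, whose product degrades inhibitors of the pathway, had 45.7, 48.3 and 45.4 CPM with Tppp3 AAV2, against 39.8, 42.7 and 39.9 CPM in the controls. Trim33 had 92.2, 86.5 and 96.6 CPM with Tppp3 AAV2, against 83.9, 83.7 and 80.8 CPM in the controls. Neither gene overlapped between groups, where 6.92% of all tested genes did not overlap with Tppp3 AAV2 higher. Both had an edgeR adjusted p of 0.65. Skil, a SMAD corepressor and itself a target, stood at 0.14, at 0.028 without control replicate 1 and at 0.23 without control replicate 2.

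Genes commonly induced by TGF-beta showed no common direction. Of 22 tested targets, a list that includes Ltbp2, 13 had a positive and 9 a negative log2 fold change, and the median was 0.049. Fn1 alone passed in edgeR, as lower. The collagen gene Col1a2 had 13.01, 10.2 and 9.35 CPM with Tppp3 AAV2, against 10.1, 4.36 and 4.07 CPM in the controls (log2 fold change 0.83, edgeR adjusted p = 0.717). Control replicate 1 lay for Col1a2 within the range of the Tppp3 AAV2 libraries, and without it the log2 fold change was 1.35 (edgeR adjusted p = 0.0719).

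In the activin branch, which shares SMAD2 and SMAD3 with TGF-beta, 0 of 10 tested genes passed in edgeR. An unadjusted p under 0.05 was reached by 2 of them, where 7.23% of all tested genes reached it. The ligand gene Gdf11 had 26.7, 28.7 and 23.4 CPM with Tppp3 AAV2, against 21.9, 21.4 and 20.1 CPM in the controls (log2 fold change 0.31, edgeR adjusted p = 0.639). The type I receptor gene Acvr1b had 133, 132 and 127 CPM with Tppp3 AAV2, against 115, 122 and 116 CPM in the controls (log2 fold change 0.15, edgeR adjusted p = 0.648). The type II receptor gene Acvr2b stood at -0.21, with overlapping groups.

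**Figure D4:**
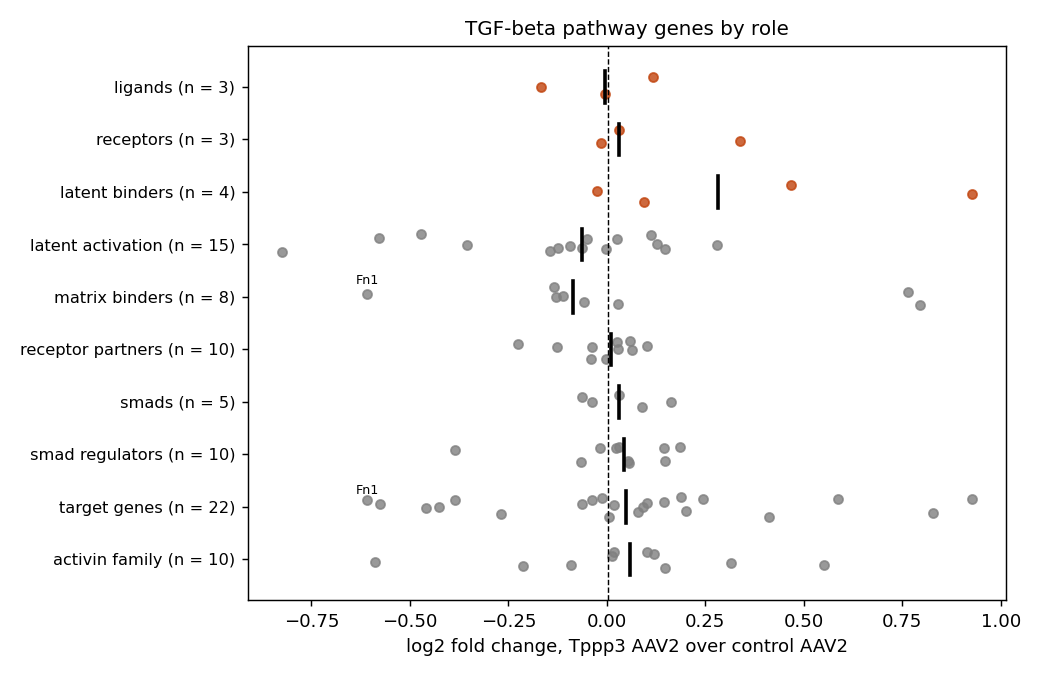
Log2 fold change, Tppp3 AAV2 over control AAV2 (horizontal axis), of the 10 ligand, receptor and latent binder genes and of the tested genes of 7 other lists of the pathway, by role, with a bar at the median of each list and a dashed line at the median of all tested genes. Fn1, named in the 2 lists that hold it, is the gene past the threshold, at -0.61.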

How the data were processed

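Whole retinas were analysed as poly(A)-selected RNA, with paired reads of 150 bases from a kit that does not mark strand, per the labels' protocols. The authors deposited raw counts per gene symbol, whole numbers headed total counts per the file headers. GRCm39 (mm39) is the build in the submitters' processing notes. No label or header used here names the aligner, counter, annotation or strand setting.

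The sample titles give 4 control and 3 Tppp3 AAV2 samples, the treatment protocol the reverse, and the titles were followed. A count column was used where it holds a sample's title, which gave 6 libraries, replicates 1 to 3 of each group. The fourth control sample was not analysed here, and 1 column, named as a further Tppp3 library (number 4) and matching no sample, was not used.

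Counts were filtered with edgeR's filterByExpr (14750 of 25655 genes kept), scaled by TMM and fitted with robust quasi-likelihood (common biological coefficient of variation 11.9%). The standard error of a log2 fold change is its size over the root of F. Correlations used log2 CPM with a prior count of 2. Exon lengths are from GENCODE vM21 on another build (GRCm38), as used for ratios only. The procedure was tested on simulated counts. The members, gene lists and promoter letters searched were chosen with results of these data known. Named were all members, Tppp3, the 3 genes of smallest p and all past the threshold of each pathway list, and the 2 genes most correlated with each member, except 1 gene that is not reported here. Alternatives were other scaling, tests, filters, leaving out each library, a replicate block, equal depth, sex read from Y-linked counts (over 10 CPM, a cutoff raised from 1 CPM after values and results were seen) and the pigment epithelium level. Versions were edgeR 4.0.16, DESeq2 1.42.0 and limma 3.58.1 in R 4.3.3, with matplotlib 3.10.9 in Python 3.11.15.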

Additional observations from a re-analysis of the deposited data

How the results depend on the processing

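Of the members, Tgfb2, Tgfbr3, Ltbp1 and Ltbp2 kept a positive log2 fold change in each of 15 other settings, apart from the first cutoff tried for sex, where Ltbp2 did not, and 0 members passed the threshold except without control replicate 1, where Ltbp2 did. With single libraries left out, members past the threshold numbered 0 to 1, pathway genes 0 to 2, all genes higher 0 to 2 and all genes lower 0 to 1, and the log2 fold change of Ltbp2 ran from 0.50 to 2.25. With single libraries left out, values changed sign for Tgfb1 (-0.72 to 0.13), Tgfb3 (-0.048 to 0.059), Tgfbr1 (-0.027 to 0.068), Tgfbr2 (-0.22 to 0.15), Ltbp3 (-0.054 to 0.0062), Ltbp4 (-0.10 to 0.21) and Smad4 (-0.095 to 0.016). DESeq2's Wald test placed 2 genes higher and 12 lower past the threshold, 2 of them pathway genes (Fn1 and Thbs1), voom placed 1 lower, and edgeR without a low-count filter 6 lower. After thinning to equal depth 1 gene was lower, and Tgfb3 changed sign to 0.040, Tgfbr1 to -0.028 and Tgfbr2 to 0.027; Tgfb3 was at 0.021 with voom. With sex as a covariate 0 genes were lower and 0 pathway genes passed. This held at both cutoffs for calling a library male. At the first cutoff tried, 1 CPM of Y-linked counts, all 3 Tppp3 AAV2 libraries and control replicate 1 were called male, and the sign changed for Ltbp2 (-0.25), Tgfb1 (0.12), Tgfbr1 (-0.015), Tgfbr2 (0.50), Ltbp4 (-0.094), Fbn1 (-0.014), Fmod (-0.096), Vasn (-0.062), Smad7 (0.12) and Acvr2b (0.098). The cutoff was raised to 10 CPM after these results were seen, since Y-linked sums were 0.738 to 2.13 CPM in 4 libraries and 224 and 235 CPM in the other two. With the mean of the tested pigment epithelium markers as a covariate 1 gene was higher and 1 lower. The sign then changed for Tgfb1 (0.23), Tgfbr2 (0.35), Ltbp4 (-0.023) and Smad7 (0.047). The cause was not tested in any of these cases.

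With the replicate number as a block, 1 gene was lower, Tgfbr2 stood at 0.0018 and no member passed. Same-numbered libraries did not deviate together (correlations of -0.029, 0.051 and -0.26 for numbers 1, 2 and 3), so the numbers were not taken to pair the samples. Of the members, Tgfb1 had the fewest counts in each library, 23 to 80. Its 80 and 25 counts in Tppp3 AAV2 replicates 2 and 3 came from libraries of similar total.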
